A study of Mus musculus with 8 samples.

Results

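*Fam19a5*, *Adgrg1*, *Rgcc*, *Meox2* and *Edil3* are 5 vessel-related genes that had lower RNA levels in cultured dermal fibroblasts without *Tgfb1*. They were selected from the 15111 genes of the deposited table for this fall, so the difference between the groups is described here and not tested in these genes. All of them but *Edil3* are among the angiogenesis genes that the study shows for their low fold change. Mean levels in the TGFβ1FKO libraries were between 43.9% and 56.2% of the control means. In *Fam19a5* and *Edil3* the groups did not overlap, whereas in *Adgrg1*, *Rgcc* and *Meox2* they did.

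Primary dermal fibroblasts came from the back skin of tamoxifen-fed mice aged 10 weeks and were kept for 72 h in serum replacement medium on fibronectin. The control group (*Tgfb1*fl/fl) had floxed *Tgfb1* alleles and no Cre, and the TGFβ1FKO group (*Tgfb1*fl/fl:*Col1a2*-CreERT) had the same alleles with a tamoxifen-inducible Cre driven by a *Col1a2* promoter and enhancer, which limits the deletion to cells that use this promoter. Each group had 4 libraries, and it was not stated that each came from a separate mouse, so the spread given here may be partly technical. Values after ± are SDs (n = 4 libraries), and log2 fold changes are TGFβ1FKO minus control on the scale of log2(normalised count + 1). Recovered reads on the listed genes ranged from 16988998 to 23071528 per library. Fibroblast markers were high in every library: the summed normalised count of 13 of 13 markers, *Col1a1* and *Col3a1* included, ranged from 1368123 to 1674562 in controls and from 1419540 to 1584797 in TGFβ1FKO. The targeted gene *Tgfb1* was left at 20.2% of the control mean.

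Blood vessels grow when endothelial cells divide, migrate and lay down new tubes, and mural cells and fibroblasts of the stroma shape this growth through secreted factors, matrix proteins and adhesion. The 5 genes stand at different steps of this exchange. *Fam19a5* encodes a small secreted chemokine-like protein of the TAFA family, for which S1PR2 has been described as a receptor on vascular smooth muscle cells. *Edil3* encodes a secreted matrix protein of endothelium that binds integrins through an RGD motif and is related to *Mfge8*. *Adgrg1* encodes an adhesion G protein-coupled receptor for which type III collagen and transglutaminase are known ligands. *Rgcc* encodes a regulator of the cell cycle that binds the CDK1 kinase and is known to be induced by TGFβ in several cell types. *Meox2* encodes a homeobox transcription factor that restrains proliferation in vascular cells. Most of these roles were worked out in endothelial, neural or smooth muscle cells, and less is known of them in dermal fibroblasts.

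Promoter windows are shown because the genes were selected as falling together after loss of a TGFβ ligand, and SMAD proteins, which carry the TGFβ signal to DNA, bind the short core CAGAC. RefSeq promoter sequences on GRCm38.p6 were found for 4 of the 5 genes, in 6 windows of 250 bases before an annotated start site. *Fam19a5* is listed there as *Tafa5*, and *Edil3* had no entry. The windows were searched on both strands for the SMAD core CAGAC. The TATA box was searched as TATAAA in the same way. The GC box was searched as GGGCGG, and overlapping copies were each counted. Windows are shown for the start site at the 5′ end of the gene, cut where an exon of the gene begins, with the matches to these letters in capitals.
Fam19a5, chr15:87544049-87544298, plus strand: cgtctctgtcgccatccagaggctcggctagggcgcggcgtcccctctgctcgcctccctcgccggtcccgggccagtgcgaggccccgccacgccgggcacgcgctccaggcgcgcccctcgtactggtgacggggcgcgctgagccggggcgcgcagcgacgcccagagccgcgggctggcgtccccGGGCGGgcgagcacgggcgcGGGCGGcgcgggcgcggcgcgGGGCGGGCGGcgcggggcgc
Rgcc, chr14:79301646-79301885, minus strand: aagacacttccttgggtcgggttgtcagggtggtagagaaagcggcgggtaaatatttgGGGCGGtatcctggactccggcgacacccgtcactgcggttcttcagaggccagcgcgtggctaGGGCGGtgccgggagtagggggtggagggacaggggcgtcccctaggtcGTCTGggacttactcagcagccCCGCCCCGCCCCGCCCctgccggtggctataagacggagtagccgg
Meox2, chr12:37108290-37108539, plus strand: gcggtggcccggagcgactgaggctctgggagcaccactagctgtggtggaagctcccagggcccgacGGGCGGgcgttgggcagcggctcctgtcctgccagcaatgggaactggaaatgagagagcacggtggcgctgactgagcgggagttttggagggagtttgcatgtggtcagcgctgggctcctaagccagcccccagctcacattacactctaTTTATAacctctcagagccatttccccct

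The *Rgcc* window held 1 SMAD core at position -78 from its start site and 5 GC boxes. The *Fam19a5* window, with 83.6% G and C, held 4 GC boxes and no match to the SMAD core, and a second window at an internal start site of this gene held 1 core at position -235. The *Meox2* window matched the TATA box on the strand opposite to the gene only, and had 1 GC box and no SMAD core. Both windows of *Adgrg1* lay at internal start sites, and no window at the 5′ end of this gene was found. Both matched the SMAD core, 1 of them at positions -115 and -102 and the other at -187. In all, 4 of the 6 windows contained the SMAD core, and of these only the *Rgcc* window lay at the 5′ end of its gene. The core was also found in 42.2% of all 32851 promoter windows of the same length. The GC box was present in 4 of the 6 windows and in 32.7% of all windows, and the TATA box in 1 of the 6 and in 12.4% of all. These matches describe letters only, and binding was not measured.

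Of the secreted proteins, *Fam19a5* (ENSMUSG00000054863, chromosome 15 of GRCm38, 87544299 to 87759364, plus strand) had normalised read counts of 124, 125, 143 and 98.8 in control replicates 1 to 4 and of 61.8, 45.6, 61.4 and 46.5 in TGFβ1FKO replicates 1 to 4. Every TGFβ1FKO library was below every control library, and it was the gene with the least spread of the 5. The mean of the controls was 123 ± 18.2 and that of the TGFβ1FKO libraries 53.8 ± 9.01. The log2 fold change was -1.18 ± 0.17 (standard error). Its reads ranged from 42 to 144 per library, well above the limit of 3 reads that a count of 0 allows.

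*Edil3* (ENSMUSG00000034488, chromosome 13, 88821472 to 89323223, plus strand) had normalised counts of 463, 572, 419 and 308 in control replicates 1 to 4. The TGFβ1FKO replicates 1 to 4 had 277, 159, 207 and 201. The groups did not overlap, but control replicate 4 and TGFβ1FKO replicate 1 lay close to each other. The mean was 440.4 ± 109 in control and 211 ± 48.6 in TGFβ1FKO fibroblasts, and the log2 fold change -1.05 ± 0.18 (standard error). *Edil3* was the most deeply covered of the 5 genes, with 154 to 538 reads per library.

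**Figure D1:**
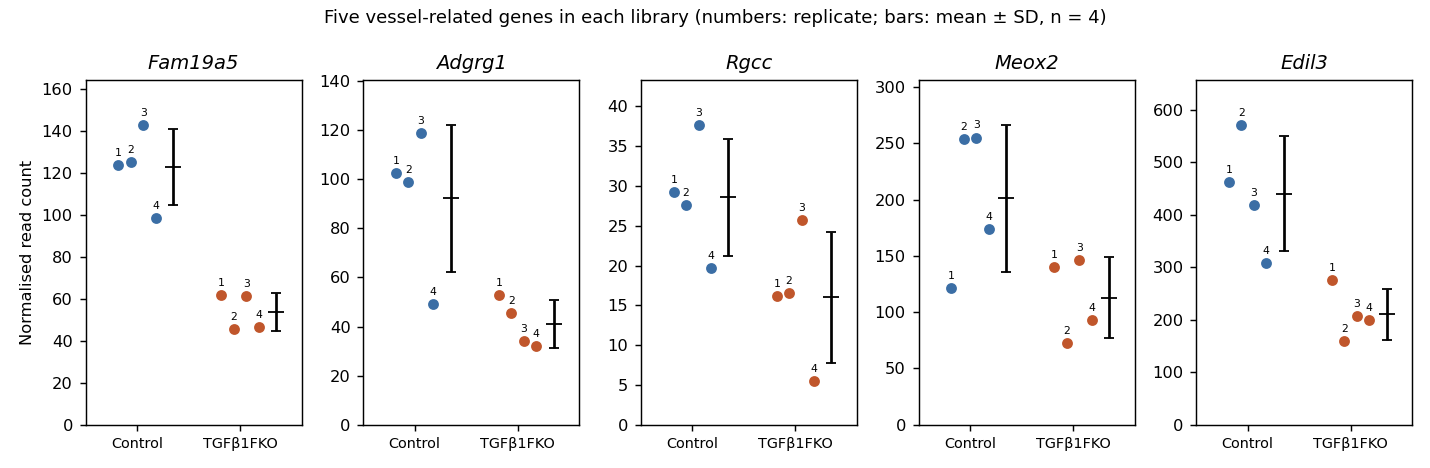
Normalised read counts (y axis, linear and starting at 0, with its own scale in each panel) of the 5 genes in the 4 control and 4 TGFβ1FKO libraries; points are libraries with their replicate number, and bars give the mean ± SD. In *Fam19a5* (45.6 to 61.8 against 98.8 to 143) and *Edil3* (159 to 277 against 308 to 572) the groups are apart, and in *Adgrg1*, *Rgcc* and *Meox2* at least 1 control library lies within the TGFβ1FKO range.

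The receptor gene *Adgrg1* (ENSMUSG00000031785, chromosome 8, 94974751 to 95014217, plus strand) had normalised counts of 102, 98.8, 119 and 49.4 in control replicates 1 to 4, against 52.7, 45.6, 34.0 and 32.1 in TGFβ1FKO replicates 1 to 4. Control replicate 4 was the 1 control that reached into the TGFβ1FKO range, below TGFβ1FKO replicate 1. In 15 of the 16 pairs of a control and a TGFβ1FKO library the TGFβ1FKO library was the lower. The means were 92.3 ± 29.9 and 41.1 ± 9.75, and the log2 fold change was -1.11 ± 0.26 (standard error). Without control replicate 4 it was -1.38.

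The cell cycle regulator *Rgcc* (ENSMUSG00000022018, chromosome 14, 79288756 to 79301645, minus strand) had the fewest reads of the 5 genes, and also the shortest exon length. It had normalised counts of 29.2, 27.6, 37.7 and 19.8 in control replicates 1 to 4 and of 16.2, 16.6, 25.7 and 5.54 in TGFβ1FKO replicates 1 to 4. TGFβ1FKO replicate 3 lay above control replicate 4, so the groups overlapped in 1 of their 16 pairs. The low value of TGFβ1FKO replicate 4 rested on 5 reads (95% exact Poisson interval 1.62 to 11.7 reads, which covers counting error only). The means were 28.6 ± 7.36 and 16.0 ± 8.26. With -0.93 ± 0.39, its log2 fold change had the largest standard error of the 5 genes. It was -0.52 without TGFβ1FKO replicate 4, and -0.75 with a pseudocount of 5.

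The transcription factor gene *Meox2* (ENSMUSG00000036144, chromosome 12, 37108540 to 37179534, plus strand) had normalised counts of 121, 254, 255 and 174 in control replicates 1 to 4 and of 140, 72.5, 146 and 93.1 in TGFβ1FKO replicates 1 to 4. Control replicate 1 was below TGFβ1FKO replicates 1 and 3. The means were 201 ± 65.4 and 113 ± 35.9, and the log2 fold change was -0.82 ± 0.26 (standard error). Without control replicate 1 it was -1.04, and without TGFβ1FKO replicate 2 it was -0.63. The non-coding gene *Gm48617* overlaps *Meox2* on the same strand without sharing an exon, and the other 4 genes overlap no annotated gene.

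The groups were apart, with TGFβ1FKO lower, in 2 of the 5 genes, against 2.10% of all 15111 genes; since the genes were selected on this contrast, nothing is read from that count. Leaving out control replicate 4 raised it to 4 of 5, with *Adgrg1* and *Rgcc* added, and the share of all genes to 4.33%. By log2 fold change, *Fam19a5* was the 95th lowest and *Adgrg1* the 115th lowest of all genes in the table. *Edil3* came 132nd, *Rgcc* 183rd and *Meox2* 242nd. Most genes below them had few reads: among the 11561 genes whose mean was 50 normalised counts or more, which leaves out *Rgcc*, *Fam19a5* was the 14th lowest, *Adgrg1* the 17th, *Edil3* the 20th and *Meox2* the 30th. The 5 genes lie on 5 different chromosomes.

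Within the groups the 5 genes did not rise and fall as 1 block. Control replicate 4 was the lowest control library in *Fam19a5*, *Adgrg1*, *Rgcc* and *Edil3*, with log2 deviations from the control mean of -0.30, -0.82, -0.48 and -0.48. In *Meox2* the lowest control was replicate 1, with -0.66. Among TGFβ1FKO libraries, replicate 2 was the lowest in *Fam19a5*, *Meox2* and *Edil3*, with deviations of -0.22, -0.57 and -0.37, and replicate 4 in *Adgrg1* and *Rgcc*, with -0.32 and -1.21. Relative to the mean, the spread between control libraries was 14.8% in *Fam19a5*, 24.8% in *Edil3*, 25.7% in *Rgcc*, 32.4% in *Adgrg1* and 32.5% in *Meox2*. In the TGFβ1FKO libraries it ranged from 16.7% in *Fam19a5* to 51.6% in *Rgcc*.

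**Figure D2:**
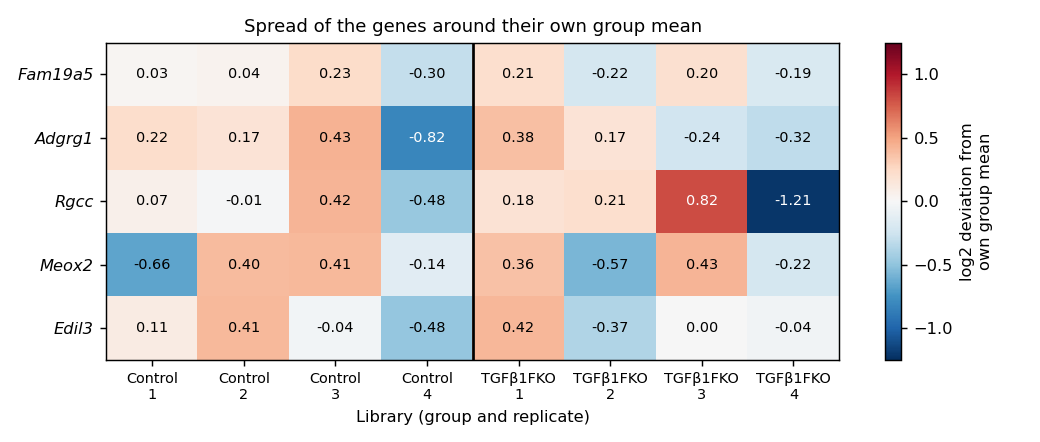
Deviation of each library (x axis) from the mean of its own group on the scale of log2(normalised count + 1), for each of the 5 genes (y axis); red is above and blue below the group mean. Control replicate 4 is below the control mean in all 5 genes (-0.82 to -0.14), and the largest deviation is that of *Rgcc* in TGFβ1FKO replicate 4 (-1.21).

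Levels were compared between genes as normalised count per kb of annotated exon. In control fibroblasts *Meox2* had the highest level with 85.2 ± 27.7, followed by *Fam19a5* with 42.2 ± 6.26, *Edil3* with 32.2 ± 7.97, *Rgcc* with 31.1 ± 8.02 and *Adgrg1* with 17.0 ± 5.51. Only between *Meox2* and *Fam19a5* were the neighbours in this order apart in all control libraries (51.4 to 108 against 34.0 to 49.2), and the other neighbours overlapped. In TGFβ1FKO fibroblasts *Meox2* again had the highest level with 47.8 ± 15.2, apart from *Fam19a5* with 18.5 ± 3.10. *Rgcc* had 17.4 ± 9.0, *Edil3* 15.4 ± 3.56 and *Adgrg1* 7.58 ± 1.80. *Edil3* (11.7 to 20.2) and *Adgrg1* (5.93 to 9.72) were also apart there. For scale, *Tgfb1* had 272 ± 16.9 per kb in controls. Exon length joins all annotated isoforms, 13.7 kb for *Edil3* against 0.918 kb for *Rgcc*, so a gene of which only a short isoform is used appears lower than it is.

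**Figure D3:**
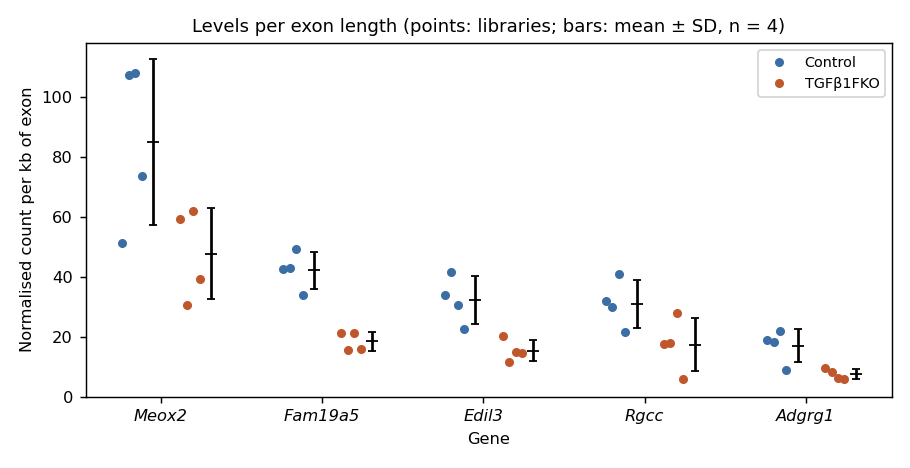
Normalised count per kb of annotated exon (y axis, linear, starting at 0) for the 5 genes (x axis, ordered by the control mean) in control and TGFβ1FKO libraries; points are libraries and bars the mean ± SD. *Meox2* stands above the other genes in both groups (85.2 ± 27.7 and 47.8 ± 15.2), and *Adgrg1* has the lowest mean in both (17.0 ± 5.51 and 7.58 ± 1.80).

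Next, the genes whose pattern over the 8 libraries was most like each of the 5 were looked up among the same 11561 genes, as the smallest root mean square difference between log2 deviations from the gene's own mean. This measure includes the difference between the groups, so a fall of like size is part of the likeness. *Fam19a5* and *Edil3* were each other's nearest gene, at 0.23. After *Edil3*, *Fam19a5* was followed by *Artn*, which encodes the neurotrophic factor artemin (0.23), and *Rspo3*, a secreted enhancer of Wnt signalling (0.26). *Edil3* was followed by *Olfml2a* and *Serpinb6b* (0.27 each). *Adgrg1* was nearest to *Fam19a5* (0.31), *Tspan15* and *Edil3* (0.32 each). *Meox2* was nearest to *Cygb*, the gene of cytoglobin (0.17), with *Angptl1* at 0.22 and *Scn7a* at 0.23, and no other of the 5 genes was nearer to it than the 49th place. *Rgcc* had no close neighbour among the genes searched: its nearest was *Artn* at 0.42, followed by *Gm12411* and *Chrd*, which encodes the BMP antagonist chordin, at 0.45 and 0.46. The mean of *Rgcc* lay below the limit of 50 set for this search, so genes at its level were left out. Its few reads also add counting error to its distance from every gene.

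*Cygb*, the gene most like *Meox2*, had a mean of 615 in control and 372 in TGFβ1FKO fibroblasts. *Artn* had 103 and 54.3, and *Rspo3* had 157 and 95.2. These genes were picked by their likeness to genes that were lower in TGFβ1FKO, and their direction follows from that.

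The known partners of the 5 genes and the wider set of angiogenic factors were then examined in lists made up by function. Of their genes, *Fgf5*, *Pdgfb*, *Reln* and *Itgb8* are also singled out by the study from these libraries. Of 130 genes listed, 104 were in the table, and 1 of them was called in limma's test (Benjamini-Hochberg adjusted p-value under 0.05 and absolute log2 fold change over 0.6) against 0.0860% of all genes tested. An unadjusted p-value under 0.05 was found for 15 of the 104, against 7.46% of all genes. The called gene was *Fgf5*, a fibroblast growth factor, with a mean of 41.4 ± 19.6 in control and 3.97 ± 2.30 in TGFβ1FKO fibroblasts and -3.11 as log2 fold change (adjusted p = 0.033 in limma). Its TGFβ1FKO values, 1.04 to 6.65, lay near the limit of 3 reads, so the size of this fold change is uncertain. The call was lost when any of control replicates 1 to 3 or TGFβ1FKO replicates 2 to 4 was left out. The median log2 fold change was -0.006 over the 104 genes and 0.003 over all genes.

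For *Fam19a5*, the other TAFA genes *Fam19a1* to *Fam19a4* were not in the table, from which genes under 40 reads in all were removed, and 3 of the 11 genes of this list were in it. None was called, and 1 had an unadjusted p-value under 0.05. *S1pr2*, the gene of the described receptor, was well expressed, at 2146 ± 73.2 in control and 2044 ± 60.5 in TGFβ1FKO fibroblasts, a log2 fold change of only -0.07 (adjusted p = 0.776 in limma).

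Of the adhesion receptor family of *Adgrg1*, 16 of 29 other genes were in the table and none was called, while 2 had an unadjusted p-value under 0.05. Within its own subfamily, *Adgrg2* had a log2 fold change of 0.12 and *Adgrg6* of -0.14, and *Adgrg3*, *Adgrg4*, *Adgrg5* and *Adgrg7* were not in the table. *Adgra2*, an adhesion receptor of brain vessel growth, went from 3381 ± 222 to 3633 ± 115, with 0.11 on the log2 scale (adjusted p = 0.703 in limma). *Adgrl4*, a receptor of endothelial cells, had means of 8.06 and 8.67. *Adgrl3*, a latrophilin, had the lowest fold change among family members whose mean was 50 or more (110 ± 26.6 in control and 65.5 ± 17.8 in TGFβ1FKO). Its groups did not overlap, but its adjusted p-value was 0.472 (limma, log2 fold change -0.75).

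Ligands and coupling partners of *Adgrg1* were all in the table, and none of 9 was called or had an unadjusted p-value under 0.05. *Col3a1*, the gene of its type III collagen ligand, had a log2 fold change of 0.02 with a standard error of 0.11. *Tgm2*, the transglutaminase ligand, had 87.9 ± 20.0 in control and 112 ± 48.4 in TGFβ1FKO. *Gnaq* (0.12), which encodes a G protein subunit, had the highest log2 fold change after *Tgm2* (0.28), and *Cd81*, a tetraspanin found with this receptor (-0.02), and *Rhoa*, a small GTPase (-0.005), had the lowest.

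The partners of *Rgcc* were all in the table, and none of the 11 was called or had an unadjusted p-value under 0.05. *Cdk1*, the kinase it binds, had 908 ± 119 in control and 833 ± 134 in TGFβ1FKO fibroblasts (log2 fold change -0.13, adjusted p = 0.823, limma). The mitotic genes *Ccnb1* (0.03), *Ccnb2* (-0.17) and *Plk1* (-0.15) had fold changes within 0.2 of 0 on the log2 scale, and so did the proliferation marker *Mki67* (0.15). *Smad3*, through which TGFβ signals, had a log2 fold change of 0.12 with a standard error of 0.09.

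Of the partners and targets of *Meox2*, 9 of 10 genes were in the table, with none called and none at an unadjusted p-value under 0.05. Its paralogue *Meox1* was near the limit of detection, with means of 12.5 ± 7.51 and 7.93 ± 1.66. The cell cycle inhibitors *Cdkn1a* (log2 fold change 0.13, adjusted p = 0.674, limma) and *Cdkn2a* (0.02, adjusted p = 0.986, limma), which this factor is known to induce in vascular cells, were not called. The fatty acid genes *Fabp5* (-0.12) and *Lpl* (0.05) had changes that were smaller than their standard errors. *Fabp4* (-0.75 ± 0.45, standard error) and *Cd36* (-0.37 ± 0.67, standard error), named after their values were seen, were low in both groups, with means of 31.5 and 17.6 and of 10.9 and 8.70.

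For *Edil3*, 10 of 13 genes of the list were in the table and none was called, with 1 at an unadjusted p-value under 0.05. Its homologue *Mfge8* was highly expressed and hardly differed, at 11191 ± 461 and 11230 ± 759. Of the integrin subunits that bind its RGD motif, the abundant ones had log2 fold changes of 0.12 (*Itgav*), 0.10 (*Itgb3*) and -0.09 (*Itgb5*), with adjusted p-values of 0.686, 0.81 and 0.853 (limma). *Itgb8*, a less expressed partner of *Itgav* that was chosen after its values were seen, was the gene with the low unadjusted p-value. It had 49.9 ± 22.0 in control and 16.6 ± 3.74 in TGFβ1FKO fibroblasts, with the groups apart (log2 fold change -1.45, adjusted p = 0.169 in limma), and was called by DESeq2 and not by edgeR. *Itga5* (0.12) was the highest and *Itgb2*, a leukocyte integrin (-0.22), the lowest among subunits whose mean was 50 or more.

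**Figure D4:**
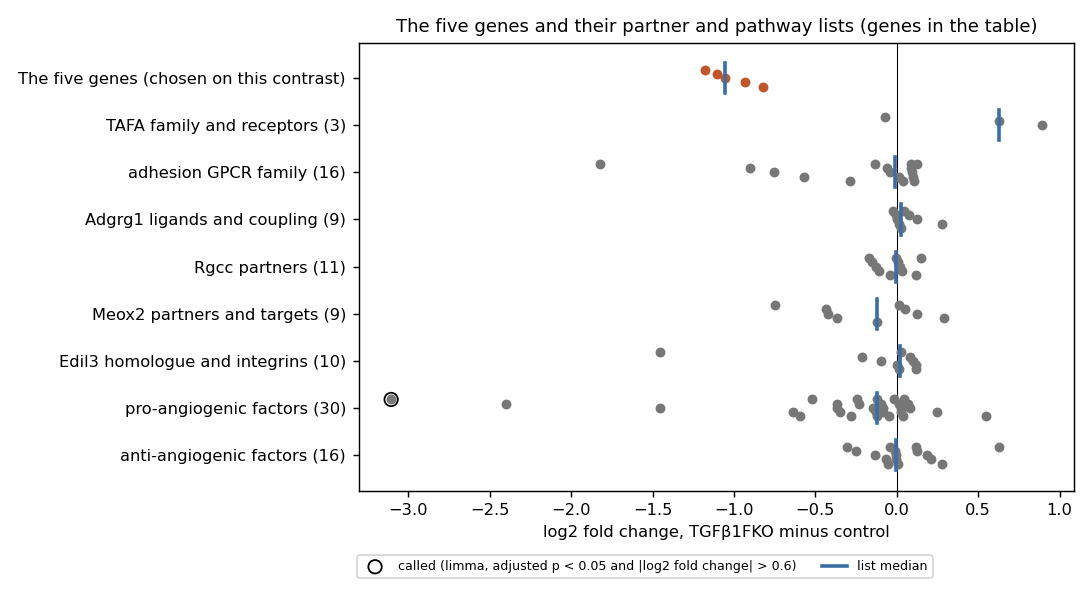
Log2 fold change (x axis, TGFβ1FKO minus control) of the 5 genes and of each partner or pathway list (y axis, number of genes in the table in brackets); each point is a gene, the vertical bar is the median and a ring marks a called gene. List medians lie between -0.12 and 0.63, and *Fgf5* (-3.11) is the called gene. The 5 genes were selected on this contrast and serve as a reference.

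Among 30 pro-angiogenic factors, *Fgf5* was called lower (0.0794% of all genes) and none was called higher (0.00662% of all genes). An unadjusted p-value under 0.05 was found for 9 of the 30, against 7.46% of all genes, and all of these but *Angptl4* were lower. The median log2 fold change of the 30 was -0.12, against 0.003 over all genes, with 21 genes lower and 9 higher. Every TGFβ1FKO library was below every control library in *Fgf5* and in 2 other genes, against 2.10% of all genes. The others, *Pdgfb* and *Reln*, were chosen after their values were seen. The study singles out all of these genes from the same libraries. *Pdgfb*, which encodes a chain of the growth factor that recruits mural cells, had 31.3 ± 18.5 in control and 4.61 ± 2.02 in TGFβ1FKO (log2 fold change -2.40, adjusted p = 0.102 in limma). *Reln*, the gene of the matrix protein reelin, had 61.9 ± 26.2 and 20.9 ± 6.08 (log2 fold change -1.46, adjusted p = 0.169 in limma). DESeq2, which called 56 of all 15111 genes, called both *Pdgfb* and *Reln*, and edgeR called neither. Among factors whose mean was 50 or more, *Cxcl12*, a chemokine that guides endothelial and other cells, went from 7125 ± 859 to 5546 ± 971, and the vessel-stabilising factor *Angpt1* from 132 ± 15.4 to 102 ± 14.7. Both had a log2 fold change of -0.37, with adjusted p-values of 0.483 and 0.632 (limma), and their groups overlapped. *Angptl4* (0.55) and *Ptgs2*, the gene of an enzyme of prostaglandin synthesis (0.25), had the highest fold changes (adjusted p = 0.536 and 0.705, limma). Of 17 anti-angiogenic factors, 16 were in the table and none was called, while 2 had an unadjusted p-value under 0.05. *Sema3f*, a repellent semaphorin, had 524 ± 73.6 in control and 836 ± 275 in TGFβ1FKO fibroblasts (log2 fold change 0.63, adjusted p = 0.464, limma). *Tnmd*, the gene of tenomodulin, had 0.28, while *Col18a1*, from which endostatin is cut, had -0.25 and *Dcn*, the gene of decorin, -0.14, and none of these passed.

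As *Adgrg1*, *Rgcc*, *Meox2* and *Edil3* are also known from endothelial cells, and a culture of digested skin can hold other cells, markers of these cells are given beside them. In bulk RNA, fewer cells of a type and less RNA per cell cannot be told apart. Of 20 endothelial markers 19 were in the table, 18 with a lower and 1 with a higher log2 fold change in TGFβ1FKO. The median of these markers was -0.47, against 0.003 over all genes. None of them was called by limma, edgeR or DESeq2, although 2 had an unadjusted p-value under 0.05 in limma, against 7.46% of all genes. Their groups overlapped in every case. Of these markers, *Pecam1*, *Cldn5*, *Nos3* and *Sox18* are among the genes shown by the study. The summed normalised count was 1291, 1527, 1485 and 1004 in control replicates 1 to 4 and ranged from 1054 to 1140 in TGFβ1FKO. Control replicate 4, the lowest control in 4 of the 5 genes, was thus also the lowest of all libraries in endothelial markers. *Erg* and *Sox18* were at 0 in 1 library each, and *Sox17* was not in the table. The part of this in the levels of the 5 genes was not tested.

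Of 19 Schwann cell markers 17 were in the table, with *Sox10* and *Foxd3* called lower by limma, against 0.0794% of all genes. An unadjusted p-value under 0.05 was found for 13 of the 17, against 7.46% of all genes. Of all 15111 genes edgeR called 22 and DESeq2 56, and of the 17 markers they called 6 and 8. The groups were apart, with TGFβ1FKO lower, in 9 of them, against 2.10% of all genes, and the median log2 fold change was -2.04. The summed count, mostly *Pmp22* and *Ncam1*, ranged from 12821 to 13677 in control and from 11280 to 13385 in TGFβ1FKO. *Gjc3* was at 0 in 1 library and *Gfra3* in 2. The part of this in the result was not tested. Of 10 pericyte and smooth muscle markers 8 were in the table and none was called by limma, 3 of them at an unadjusted p-value under 0.05, while *Myh11*, a smooth muscle myosin also chosen after its values were seen, was called higher by edgeR and by DESeq2. The sums of these markers ranged from 31989 to 38946 in control and from 36483 to 43965 in TGFβ1FKO. They were mostly *Acta2*, also a gene of myofibroblasts (30099 to 37213 in control and 34699 to 41512 in TGFβ1FKO), and so say little of the other markers. Of the 8 markers, 4 had a lower and 4 a higher log2 fold change. Melanocyte, macrophage, keratinocyte, skeletal muscle and adipocyte lists had 3 to 5 genes in the table each and no called gene, with 0 to 2 genes at an unadjusted p-value under 0.05 and none called by edgeR or DESeq2. Their defining genes *Dct*, *Ptprc*, *Krt5*, *Krt14*, *Myod1* and *Adipoq* were not in the table. Other genes of these lists, named after their values were seen, were in it. Means in control and TGFβ1FKO were 287 and 231 for *Lyz2*, 198 and 215 for *Mitf*, and 69.5 and 69.2 for *Krt10*. They were 663 and 783 for *Acta1*, 139 and 149 for *Pparg*, 22.2 and 44.8 for *Dsp*, and 12.5 and 4.12 for *Tnnt3*. The missing genes thus do not show that these cells were absent.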

How the data were processed

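RNA of 4 control and 4 TGFβ1FKO fibroblast cultures was sequenced from non-directional libraries. The authors aligned reads with HISAT2 2.0.5 to GRCm38, and featureCounts 1.5.0-p3 is among the tools of the submitters' processing notes. Genes that did not reach 40 reads in all 8 libraries together were removed by the authors, who deposited DESeq2 1.42.0 normalised counts, a signal to which 0.5 had been added. The deposited log2 fold changes, scores (Wald statistic) and p-values are the authors' own comparison and were not used.

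The 0.5 was subtracted, which gave whole reads for 100% of values in each library (within 0.02 reads). Log2(value + 1) was fitted in limma 3.58.1 (R 4.3.3; trended prior variance) with Benjamini-Hochberg adjustment over 15111 genes. Members of the set, lists and tests were chosen with earlier results of these data known. Recovered reads of all 8 libraries were also tested with edgeR 4.0.16 and DESeq2 1.42.0, which called 22 and 56 genes. On simulated data with 200 genes changed 4-fold among 15111, each of the tests called 100% of them. That change, 2 on the log2 scale, is larger than those of the vessel-related genes, from -1.18 (*Fam19a5*) to -0.82 (*Meox2*). The changed genes were drawn only from those with a mean of at least 100 reads per library, scaled for depth. *Fam19a5*, *Adgrg1* and *Rgcc* lay below that level. The recovery of changes as small as those of the 5 genes, or at lower levels, was not tested. The percentage is not split by expression level.

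No pair of libraries in a group agreed within sampling noise (the smallest chi-square was 4.89 per degree of freedom), and the range of depth is given in the report. A limit of 3 reads was taken for a count of 0, and limits and Poisson intervals cover counting error only. Genes were named by a rule: the 5 genes, *Tgfb1*, called list genes, the lowest and highest 2 of each list with a mean count of at least 50, homologues and direct partners, and the 3 nearest patterns. Coordinates and exons are from GENCODE M21 on GRCm38, promoters from RefSeq. Alternatives covered the test, TMM scaling, pseudocounts of 0.5 and 5, a mean of at least 10 reads, the replicate block and each library left out.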

Additional observations from a re-analysis of the deposited data

Results flagged for a closer look

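A single library lay far from the other 3 of its group in 8 of the 124 groups of 4 examined, where chance gives about 1 in 20, or 6.2. None of these was a group of the 5 vessel-related genes. Control replicate 4 had the lowest *Ccnb1* (848 against 1121 to 1159) and *Ptgs2* (969 against 1361 to 1407), and the highest *Itgb5* (16161 against 12404 to 12970), *Tnmd* (1502 against 828 to 930.3) and summed keratinocyte markers (152 against 113 to 116). Control replicate 1 had the lowest *Lpl* (3316 against 5140 to 5498). TGFβ1FKO replicate 1 had the lowest *Smad3* (1394 against 1655 to 1703) and TGFβ1FKO replicate 2 the lowest *Angptl1* (30.0 against 53.1 to 56.5). All are normalised counts.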

How the results depend on the processing

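The log2 fold changes of the 5 genes kept their direction in all 15 alternatives. As the genes were selected for being lower in these same libraries, nothing is read from the kept direction. The fold changes also moved by less than the spread (SD) between replicates. Leaving out 1 of 4 libraries cannot move a group mean by as much as that, so nothing is read from it for those alternatives. Leaving out 1 library gave -1.28 to -1.10 in *Fam19a5*, -1.38 to -0.96 in *Adgrg1*, -1.20 to -0.52 in *Rgcc*, -1.04 to -0.63 in *Meox2* and -1.21 to -0.92 in *Edil3*. The number of genes called among all genes was 13, 22 with edgeR, 56 with DESeq2, and 5 to 32 with a library left out. It was 32 without control replicate 4, and 5 to 7 without any of control replicates 1 to 3 or TGFβ1FKO replicates 2 and 4. In the partner and pathway lists it was 1, 4 with DESeq2 (*Fgf5*, *Pdgfb*, *Reln* and *Itgb8*, the last 3 named after their values were seen), and 0 to 3 with a library left out (3 without control replicate 4). The count of the 5 genes with the groups apart was 2, against 2.10% of all genes. With a library left out, an alternative chosen after seeing the data, it was 2 to 4. The share of all genes then rose to between 3.04% and 4.33%, and nothing is read from the count. With the replicate number as a block, 31 genes were called among all genes and 3 in the lists, and the fold changes of the 5 genes stayed the same by construction. No pairing by number was seen in the correlations of same-numbered libraries' deviations over genes, which ranged from -0.134 to 0.159. The highest correlation between the groups was that of control replicate 4 with TGFβ1FKO replicate 2 (0.387). Control replicate 1 correlated better with TGFβ1FKO replicate 3 (0.199) than with its own number. The causes of these moves were not tested. Depth limits *Rgcc* most, with 5 to 34 reads per library.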
